A study of Gallus gallus with 6 samples.

Results

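The genes SRI, FAM174A, LOC770705, RDM1 and SUCLG2 were followed through 6 pools of chick embryo brain because their array signal jumped between pools in a way that did not follow sex. All probe sets whose only gene symbol in the platform annotation is 1 of these 5 genes were taken, which gave 12 probe sets of 37693 for chicken sequences, and 5 genes of 13008 named on the array. The genes were chosen by the size of the jumps between pools in these same values, so their levels are described here without a test.

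The material was brain from Gallus gallus embryos at stage 29 (6 to 6.5 days of incubation by the labels), with the sex known from DNA, combined into 3 male and 3 female pools of 5 to 8 embryos, each read on 1 Affymetrix array. No strain, genotype or treatment is given in the labels for either sex. A pool is an average over its embryos, so the values cannot show how single embryos differ, and fewer cells of a type cannot be told apart from less RNA per cell. Signals are log2 values, and levels were compared between pools only within a probe set.

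The 5 proteins have different jobs. SRI encodes sorcin, a calcium-binding protein of the penta-EF-hand family that binds ryanodine receptors and other calcium handling proteins. SUCLG2 encodes the GTP-forming beta subunit of succinate-CoA ligase, a mitochondrial enzyme of the tricarboxylic acid cycle that works as a dimer with the alpha subunit SUCLG1, while SUCLA2 is the ATP-forming alternative to SUCLG2. RDM1 is named for a motif it shares with the recombination protein RAD52, and its loss in the chicken cell line DT40 raises sensitivity to cisplatin. FAM174A encodes a membrane protein whose function is little known, and no role is given here for LOC770705. In the RefSeq annotation of the assembly GRCg7b the genes lie on 5 different chromosomes, SRI on 2, LOC770705 on 9, SUCLG2 on 12, RDM1 on 27 and FAM174A on the Z, of which males carry a pair and females a single copy. Coordinates are left out because no build is named for the array.

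All 10 genes of a list of neural markers were above background in at least 1 pool, background being 4.21, the level under which 95% of the array's viral and other foreign probe sets lay by their mean. The mean of that list was 8.57 to 8.74 in male pools and 8.82 to 9.03 in female pools. Female pool 3 stood apart in HOX genes of hindbrain and spinal cord, whose mean over 9 genes was 5.05 to 5.24 in male pools. In female pools 1 and 2 the mean was 5.34 and 5.40, and in female pool 3 it was 3.98, under background. Of the 9 genes, 2 were under background in all pools. The mean of 7 genes of a red blood cell list was 10.5 to 10.9 in male pools and 10.2 to 10.7 in female pools. The 7 include ALAS1, which a synonym put in place of the listed ALAS2. The means of lists for pigment cells and eye, muscle and mesenchyme differed by at most 0.18 between any pools. In these lists 4 of 9, 3 of 8 and 4 of 9 genes were under background in all pools, which can flatten a mean. Single genes ranged more widely, up to 1.00 in OCA2, 0.58 in MYL1 and 0.70 in COL1A1, in that order of lists. In the neural, HOX and red blood cell lists they ranged up to 1.05 in DCX, 3.95 in HOXA3 and 1.60 in HBZ. The part of these differences in the values below was not tested.

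SRI was at background in 1 pool of each sex, in 1 of its 3 probe sets. The probe set GgaAffx.11659.1.S1_at read 3.05, 8.74 and 8.82 in male pools 1, 2 and 3, against 8.69, 2.92 and 8.58 in female pools 1, 2 and 3. Male pool 1 and female pool 2 lay under background, while the other 4 pools lay within 0.24 of each other. The gap between the higher of the low pools and the lowest of the other 4 was 5.53 log2 units, or 46.2-fold, a size that background limits. Because each sex had 1 low pool, the sex means were close, 6.87 ± 3.31 (SD, n = 3) in male and 6.73 ± 3.30 in female pools.

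The other SRI probe sets did not share the switch. GgaAffx.11659.1.S1_s_at, whose name marks it as made for the same target sequence, read 9.64, 9.58 and 9.61 in male pools, against 9.52, 9.50 and 9.49 in female pools. Gga.1185.2.S1_s_at read 9.34, 9.32 and 9.28 in male pools, against 9.17, 9.23 and 9.18 in female pools. Their whole ranges were 0.15 and 0.16, and male pool 1 and female pool 2 were not set apart in either. In both, all male values were above all female values, by small margins, as was true of 9.26% of all chicken probe sets.

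FAM174A was low in a lone female pool. Its 1 probe set read 9.82, 9.77 and 9.61 in male pools, against 8.60, 3.13 and 8.79 in female pools. Female pool 2 was under background and lay 5.47 log2 units (44.4-fold) below the next pool. The low pool sets the sex means, which were 9.73 ± 0.11 (SD, n = 3) in male and 6.84 ± 3.22 in female pools. Among the other 5 pools the 3 male values still lay above the 2 female ones, within a range of 1.22. All male values above all female values were found in 9.26% of all chicken probe sets. FAM174A lies on the Z, and the share among Z genes alone was not counted. The median male minus female difference was 0.18 over 605 Z genes, against 0.02 over all 13008 genes. With a lone probe set, no second reading of FAM174A was to be had from this array.

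LOC770705 gave the same switch in both of its probe sets. Both names carry the number 19447, and whether the 2 sets read overlapping sequence was not tested. Gga.19447.1.S1_at read 9.28, 3.90 and 9.33 in male pools, against 9.74, 9.78 and 3.81 in female pools. Gga.19447.2.S1_s_at read 7.99, 3.65 and 8.19 in male pools, against 8.34, 8.40 and 3.42 in female pools. In both, male pool 2 and female pool 3 were under background and the gap to the other 4 pools was 5.38 and 4.34 log2 units (41.6-fold and 20.2-fold). Female pool 3 is also the pool with low HOX signals, whereas male pool 2 had a HOX mean of 5.18, inside the range of the other male pools. Each sex had 1 low pool, and the male minus female difference was -0.28 and -0.11 in the 2 probe sets.

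RDM1 was lowest in male pool 1 in both of its probe sets. Gga.1356.1.S1_at read 3.72, 8.52 and 8.38 in male pools, against 7.30, 8.10 and 7.14 in female pools. Gga.10762.1.S1_at was dimmer and read 3.84, 5.38 and 6.26 in male pools, against 4.74, 5.57 and 5.39 in female pools. Male pool 1 was the only pool under background in either. It lay 3.42 log2 units (10.7-fold) below the next pool in the first probe set and 0.91 (1.87-fold) in the second, and since it was under background in both, these sizes are limited by the level of the other pools and cannot be compared. The other 5 pools were less tightly grouped than for SRI or LOC770705, spanning 1.38 and 1.52 log2 units. The male minus female difference was -0.64 in the brighter and -0.07 in the dimmer probe set.

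SUCLG2 ran the other way, with 1 pool high. GgaAffx.20374.1.S1_at read 3.62, 7.25 and 3.35 in male pools, against 3.17, 3.33 and 3.25 in female pools. Male pool 2 alone was above background, 3.63 log2 units (12.4-fold) over the next pool, and the other 5 lay within 0.45. GgaAffx.20374.1.S1_s_at, named for the same target, read 7.60, 7.46 and 7.19 in male pools, against 7.48, 7.40 and 7.20 in female pools. Male pool 2 was in the middle of these values.

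In the brightest SUCLG2 probe set male pool 2 was not high but low. GgaAffx.12000.1.S1_at read 9.29, 8.28 and 8.94 in male pools, against 9.22, 9.16 and 8.91 in female pools. Male pool 2 lay 0.63 log2 units (1.55-fold) under the next pool, while the other 5 spanned 0.37. The fourth probe set, Gga.2557.1.S1_at, was under background in all 6 pools, at 3.12 to 3.36 in male and 3.15 to 3.46 in female pools.

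**Figure D1:**
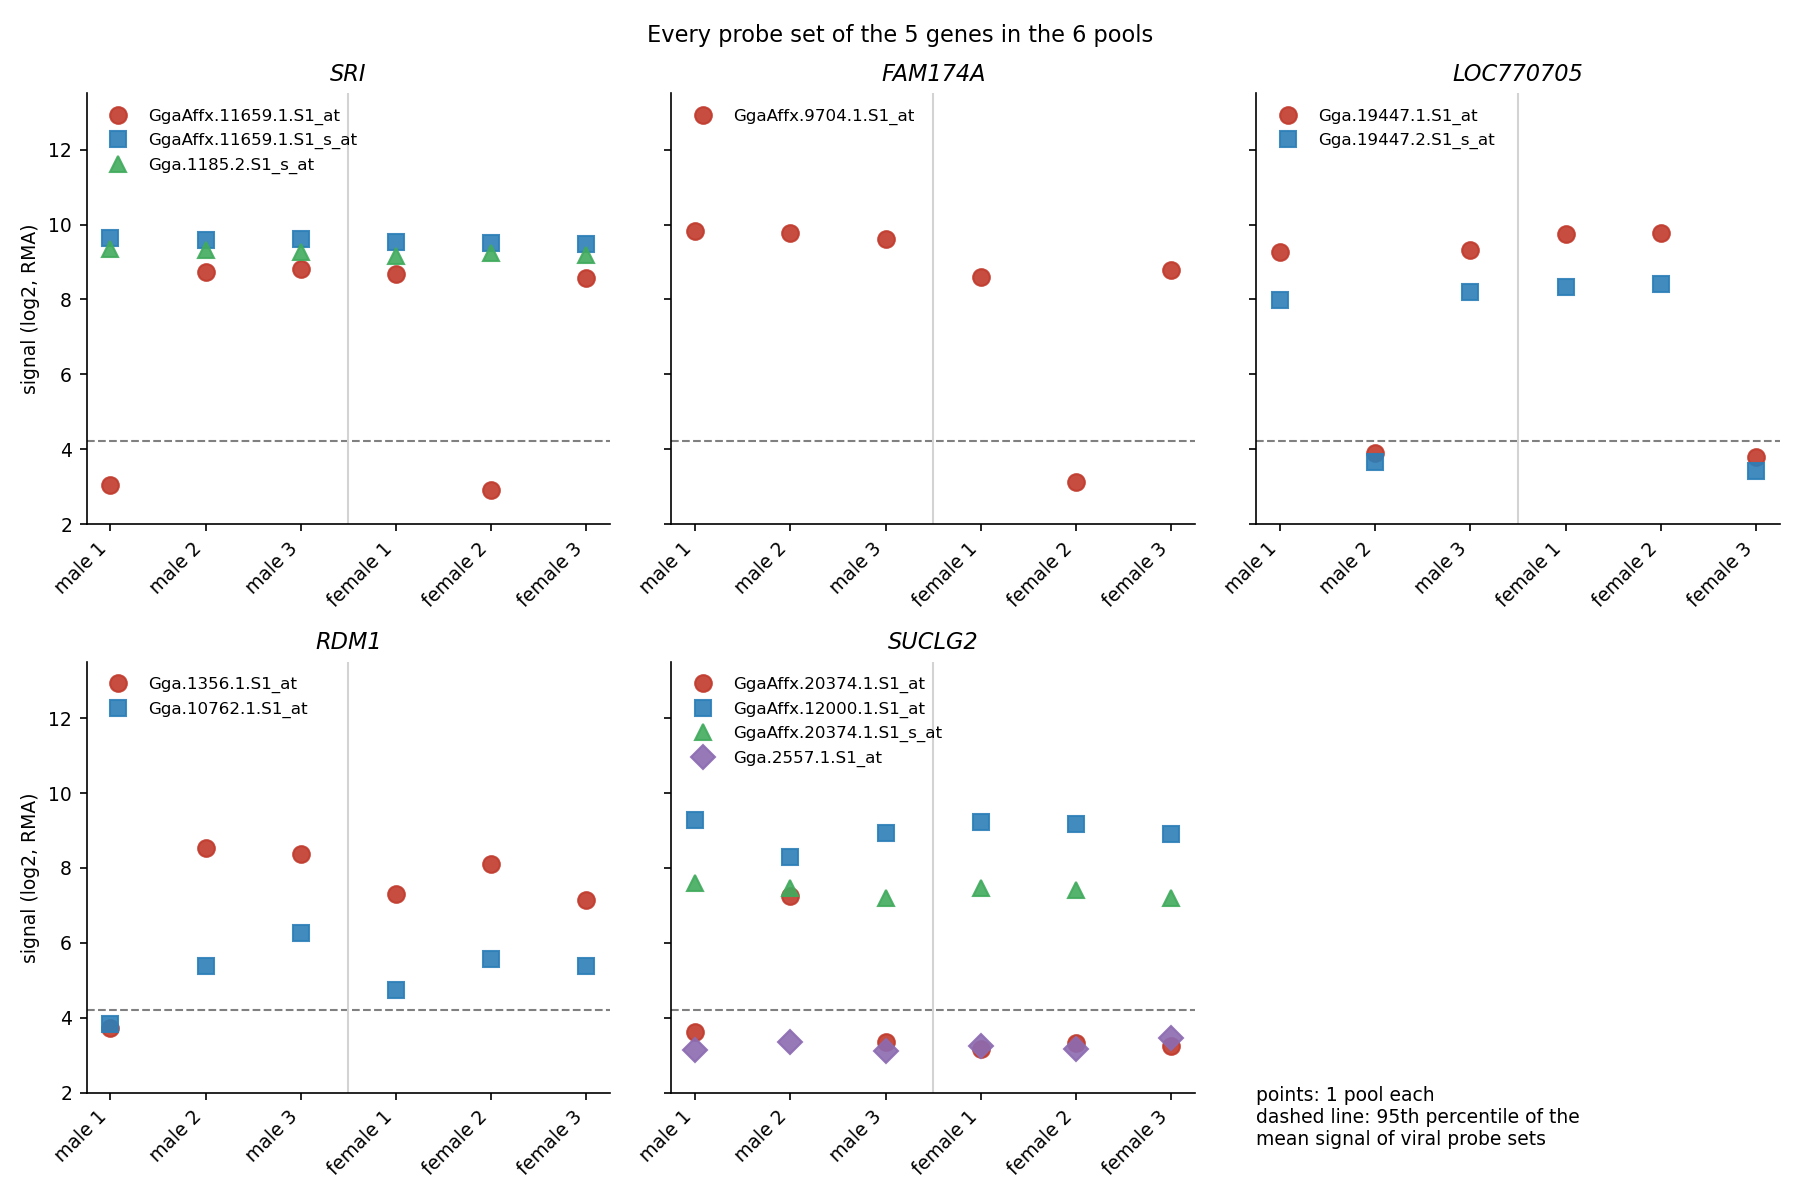
Log2 signal (vertical axis) of every probe set of the 5 genes in male pools 1 to 3 and female pools 1 to 3 (horizontal axis). Each point is 1 pool, and the dashed line marks background at 4.21. LOC770705 has low pools in both probe sets, SRI in 1 of 3, and SUCLG2 has a high pool in 1 of 4.

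The low pools were not the same from gene to gene. Male pool 1 was low for SRI and RDM1, female pool 2 for SRI and FAM174A, and male pool 2 and female pool 3 for LOC770705. Female pool 1 and male pool 3 were on the low side for none of these 4 genes, and for SUCLG2 they were at background with 3 others. No pool was low for more than 2 of the 4.

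To place the switches among all chicken probe sets, the 6 values of each were sorted and the widest gap between neighbouring pools was taken. The median range over the 6 pools was 0.33 log2 units, and 99% of probe sets ranged over less than 1.41. A gap of at least 1 split the pools in 148 probe sets, or 0.393%, and in 28 of these it lay between the male and the female pools. A gap of at least 2 was found in 34 probe sets (0.0902%). In 13 of these it lay between the sexes and in 21 elsewhere, and 6 of the 21 belong to the 5 genes. A widest gap elsewhere does not mean that the sexes overlapped. They did not overlap in FAM174A, NDUFS1, NUF2 or the W gene HNRNPKL, all among the 21. In FAM174A and NDUFS1 all male values were above all female values, as was true of 9.26% of all chicken probe sets. NUF2 and HNRNPKL went the other way, and the share for that direction is not given here. At a gap of at least 4 there were 10 probe sets, 6 with all male pools low and 4 from SRI, FAM174A and LOC770705. These counts only restate how the genes came to be chosen. UMPS (3.63) and HOXB3 (3.44), also not split by sex, had gaps close to those of SUCLG2 and RDM1 and were not chosen, and as the low sides of all 4 were under background, their sizes have no order.

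**Figure D2:**
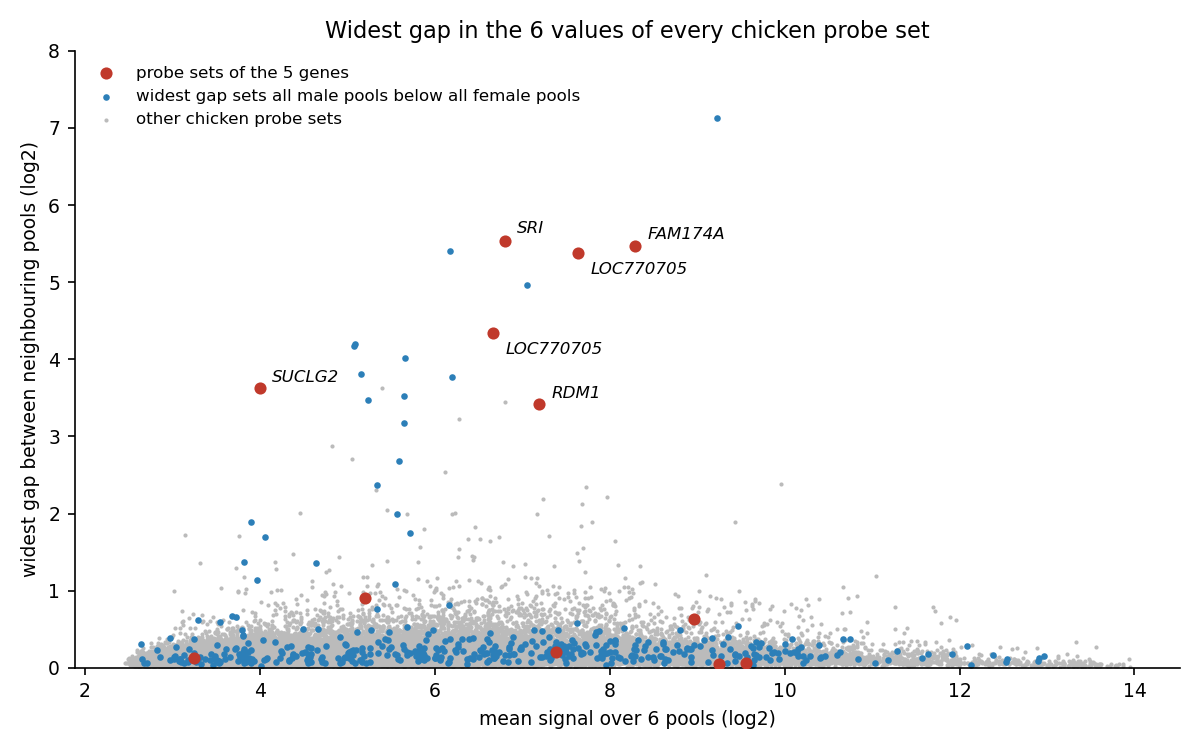
Widest gap between neighbouring pools (vertical axis, log2) against mean signal over the 6 pools (horizontal axis, log2), 1 point for each of 37693 chicken probe sets. Red points are the probe sets of the 5 genes, and blue points those whose widest gap puts all male pools below all female pools. SRI, FAM174A and LOC770705 reach 5.38 to 5.53, among the blue points and above all grey ones.

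Probe sets of the same gene were compared in such splits, each gene entering by its probe set with the widest gap. Of 17 genes with a gap of at least 2 that was not by sex, 15 had a further probe set. In 1 of the 15, LOC770705, another probe set had the same low pools with a gap of at least 1. In 12 of the 15, SRI, SUCLG2 and RDM1 among them, another probe set had a mean above background and a gap under 1. Only 0.393% of all chicken probe sets had a gap of at least 1, so a gap under 1 is the usual reading for any probe set. The low pool of the second RDM1 probe set was nevertheless the same, with a gap of 0.91 just under that limit.

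A contrast within SRI and SUCLG2 lay between probe sets ending in _at and _s_at that were named for the same target. In SUCLG2 it also lay between _at sets, as male pool 2 was the lowest in GgaAffx.12000.1.S1_at. By the maker's naming, the probes of an _s_at set match more than 1 transcript. The array holds 1567 targets with a pair of an _at and an _s_at set. A gap of at least 1 was found in 17 of the _at sets and in 4 of the _s_at sets, and in no pair in both. The _at set had a gap of at least 2 in 5 of them, and in these the _s_at set had a gap under 1, as nearly all _s_at sets did, whereas no _s_at set of a pair had a gap of at least 2. The 5 include SRI and SUCLG2, which were chosen for such jumps in these same values and also count among the 17. The other 3 were UMPS, an enzyme of pyrimidine synthesis, the complex I subunit NDUFS1, and RHOG2, named after their values were seen. The comparison of pairs was itself added after the values were seen, so these counts are a description and not a test. In UMPS the _at set read 3.23, 6.86 and 7.36 in male pools, against 3.12, 3.10 and 8.75 in female pools, while its _s_at set ranged over only 0.35.

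**Figure D3:**
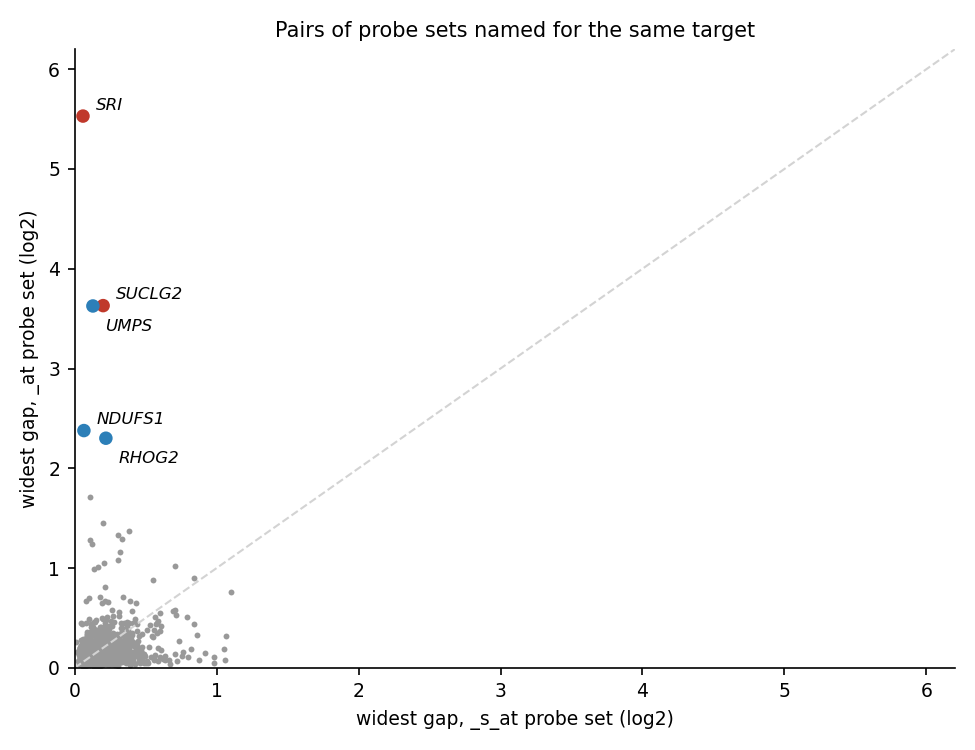
Widest gap between neighbouring pools (log2) in the _at probe set (vertical axis) and the _s_at probe set (horizontal axis) of 1567 targets, with equal values on the dashed line. SRI and SUCLG2 (red) and 3 other genes (blue) with an _at gap of at least 2 have _s_at gaps of 0.06 to 0.22.

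Genes next to the 5 on their chromosomes were not split in this way. The 5 nearest array genes on each side, by gene order in GRCg7b, gave 50 neighbours with 112 probe sets. None of the 112 had a gap of at least 1, as against 0.393% of all chicken probe sets, a share at which fewer than 1 would be met in a set of this size. Each neighbour is given by its brightest probe set, and 31 of the 50 had a mean above background. Neighbours of SRI had ranges of 0.22 to 0.94, the widest in ADAM22, a neuronal membrane protein, and only 3 of the 10 were above background. For none of the 10 were male pool 1 and female pool 2 the lowest.

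Neighbours of LOC770705 ranged over 0.13 to 1.00. They include ZIC1, a transcription factor of the dorsal neural tube, which read 10.7, 10.7 and 10.8 in male pools, against 10.9, 11.0 and 10.9 in female pools. For none of the 10 were male pool 2 and female pool 3 the lowest. Neighbours of RDM1 ranged over 0.16 to 0.50, and male pool 1 was lowest for 1 of them, CD79B, by 0.10. Neighbours of SUCLG2 ranged over 0.17 to 1.55, the widest being TMF1, with 5.89, 6.39 and 4.94 in male pools, against 5.99, 6.49 and 5.54 in female pools. Male pool 2 was highest for 3 of the 10, SLC25A26, EOGT and UBA3, whose widest gaps were only 0.13 to 0.19. It was lowest for MAGI1 and FAM19A1, by similar gaps of 0.18 and 0.16. How often a given pool is the highest or lowest over all genes was not counted, for these or the other neighbours.

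The 10 neighbours of FAM174A on the Z ranged over 0.26 to 1.16. Female pool 2 was lowest for PAM, an enzyme that amidates peptide hormones, and for RGMB, a BMP co-receptor. PAM read 7.60, 7.73 and 7.80 in male pools, against 7.33, 7.20 and 7.31 in female pools. RGMB read 7.70, 7.25 and 7.67 in male pools, against 7.31, 6.98 and 7.31 in female pools. In both genes female pool 2 was far nearer to its sex than for FAM174A.

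Sex was tested in these neighbours with limma over all chicken probe sets, of which 209 passed (0.554%). RIOK2, a kinase of ribosome assembly beside FAM174A, was higher in males by 0.71 (SE 0.10, limma adjusted p = 0.0302) in the brighter of its 2 probe sets. This set read 7.88, 7.65 and 7.55 in male pools and 6.99, 7.06 and 6.89 in female pools. All male values were above all female values, as was true of 9.26% of all chicken probe sets. The other RIOK2 probe set, with a wider range of 1.20, did not pass. RIOK2 was the only neighbour of the 50 that passed, against 0.923% of all genes by their brightest probe set and 17.2% of Z genes, all of these Z genes higher in males. The call was lost when any pool but male pool 3 was left out (limma adjusted p = 0.0777 to 0.124, and 0.0435 without male pool 3). PAM gave 0.43 (SE 0.08, limma adjusted p = 0.102). The median male minus female difference was 0.26 over the 10 Z neighbours and 0.18 over 605 Z genes.

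**Figure D4:**
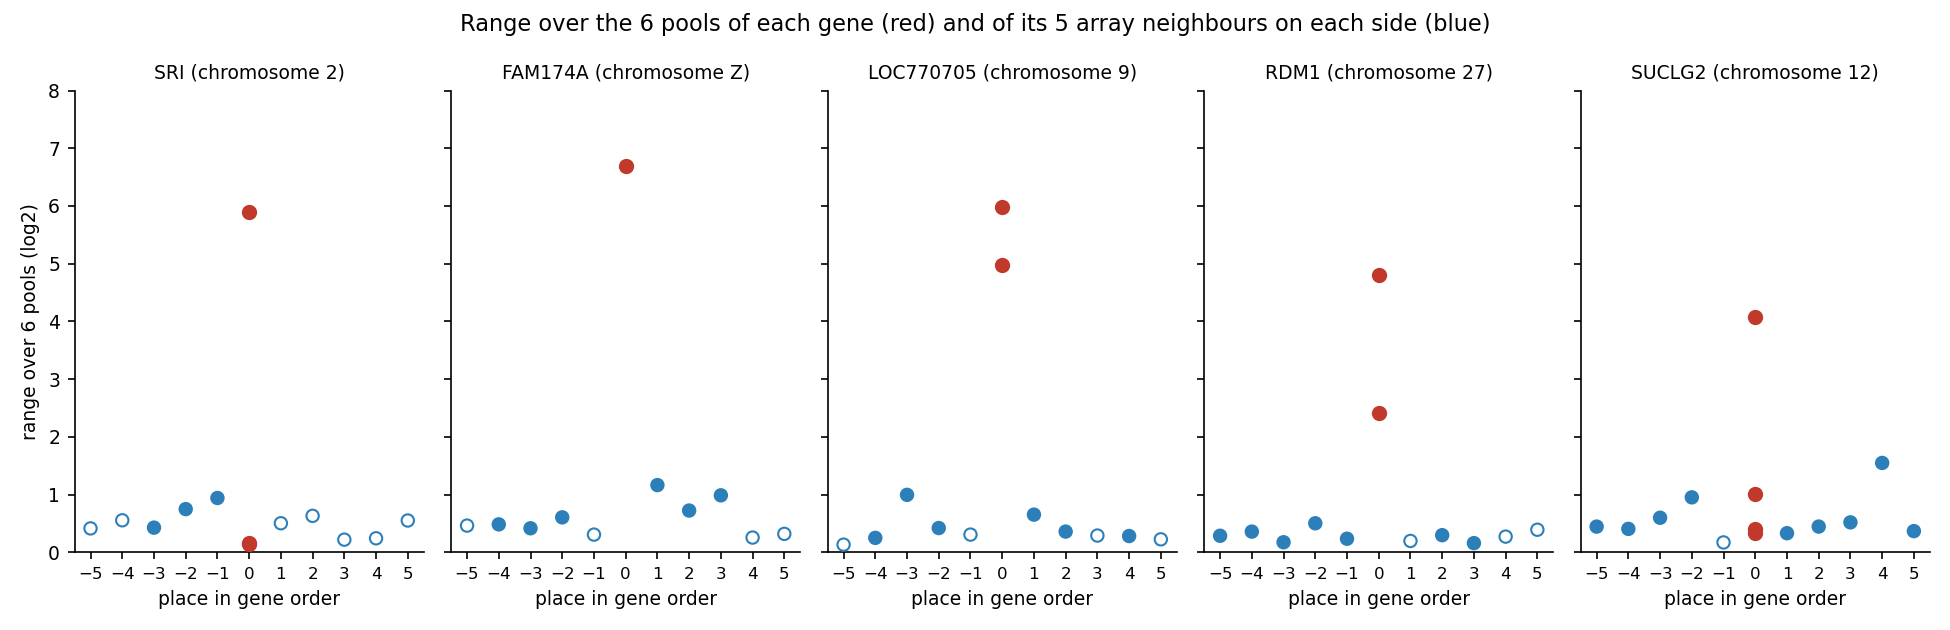
Range over the 6 pools (vertical axis, log2) of each probe set of the 5 genes (red, at 0) and of the brightest probe set of the 5 nearest array genes on each side (blue) by place in gene order (horizontal axis). Open points have a mean under background. No neighbour ranges over more than 1.55 in its brightest probe set, while the widest probe sets of the 5 genes range over 4.08 to 6.69. These are unlike measures, as the brightest probe sets of SRI and SUCLG2 range over only 0.15 and 1.00.

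Genes of the same pathways were read as a further comparison. Of 64 listed genes 51 were found on the array. None of the 51 passed between the sexes (limma, adjusted p under 0.05, against 0.923% of all genes), and 5 had an unadjusted p under 0.05, as had 12.7% of all genes. Their median male minus female difference was 0.05, against 0.02 over all 13008 genes, and their median range 0.39, against 0.35. In the brightest probe sets none had a gap of at least 1, against 0.461% of all genes. Among all 100 probe sets 1 did, of XRCC3, a gene of homologous recombination, with 5.85, 6.36 and 5.58 in male pools, against 4.43, 6.56 and 6.09 in female pools. The brighter XRCC3 probe set ranged over 0.36.

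In the tricarboxylic acid cycle the 15 genes ranged over 0.13 to 0.71 in their brightest probe sets. SUCLG1, the alpha subunit that pairs with SUCLG2, read 6.99, 7.65 and 7.45 in male pools, against 7.51, 7.30 and 7.40 in female pools. SUCLA2, the ATP-forming beta subunit, read 6.76 to 7.29 in male and 6.82 to 7.35 in female pools. Male pool 2 was the highest for SUCLG1 and lay inside the other values for SUCLA2. The widest gap of SUCLG1, 0.31, set male pool 1 below the rest and not male pool 2 above it. Neither passed between the sexes (limma adjusted p = 0.954 and 0.928). The widest range was that of IDH2, a mitochondrial isocitrate dehydrogenase.

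Among 22 genes of homologous recombination the widest range by brightest probe sets, 1.26, was that of BARD1, the partner of BRCA1. Further probe sets of XRCC3 and BRCA1 ranged over 2.14 and 1.35. BARD1 read 5.85, 6.62 and 6.90 in male pools, against 7.11, 6.77 and 6.64 in female pools. Male pool 1, the pool that was low for RDM1, was also the lowest here, by 0.77. In this list male pool 1 was the lowest for BRCA2, BLM and DMC1 as well, but only by small margins or under background. BRCA2 read 4.587 there, against 4.588 in female pool 3, and BLM 6.962, against 6.997 in male pool 2. DMC1 was under background in all pools, at 3.23 to 3.44, so its values have no order. Female pool 2 was the lowest for more genes of the list, XRCC2, RPA2 and RPA3 among them. RAD52 itself read 6.11, 6.09 and 6.52 in male pools, against 6.45, 6.09 and 6.23 in female pools, with male pool 1 inside the others.

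The 13 relatives and partners of SRI ranged over 0.15 to 0.65. PDCD6, another penta-EF-hand protein, read 9.61, 9.63 and 9.60 in male pools, against 9.71, 9.57 and 9.62 in female pools. The widest range was that of ATP2A2, the calcium pump of the endoplasmic reticulum, which gave -0.39 (SE 0.10, limma adjusted p = 0.242) with 9.97, 9.67 and 9.96 in male pools and 10.2, 10.3 and 10.3 in female pools. FAM174B, the one relative of FAM174A found, read 6.81, 6.39 and 6.74 in male pools, against 6.59, 6.61 and 6.87 in female pools. Female pool 2 lay inside the other values.

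Other genes with the same low pools were looked for, among probe sets with 1 gene and a gap of at least 1, and were ordered by the root mean square difference from the gene's widest probe set over the 6 pools, each centred on its own mean. For RDM1 there were 7 such probe sets. The nearest was DIEXF at 0.75 log2 units, with 5.20, 8.39 and 8.54 in male pools, against 8.45, 7.55 and 8.25 in female pools. DIEXF has 4 probe sets, and no other of them was split by a gap of at least 1 with the same low pool. In 2 of the others the mean was above background and the gap under 1. JAKMIP2 (0.99) and ARHGAP33L2 (1.11) came next. For FAM174A the nearest of 6 was CRAMP1 at 1.61, whose gap was 1.49. For LOC770705 there were 2, VPS29, a retromer subunit, at 1.91 and LOC107052719 at 2.00. LOC107052719 read only 2.81 to 4.69 over the pools, so its split lies close to background. VPS29 read 5.59, 4.25 and 5.95 in male pools, against 6.16, 5.64 and 4.09 in female pools. No other probe set of any kind with a gap of at least 1 had the low pools of SRI, and none with a gene name had those of SUCLG2.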

How the data were processed

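Male and female pools of chick brain, 3 each, were measured on 1 Affymetrix array per pool. The authors deposited log2 values, 1 per probe set and array, and the submitters' processing notes name RMA and the affy package, with no version. RMA evens out the arrays and summarises several probes, so a change in some probes of a set can be muted, and it carries no detection call. The values themselves, which ran from 2.28 to 14.1 with array medians of 4.84 to 4.87, gave the log2 scale. Of 38535 probe sets, 153 control and 689 viral or other foreign ones were not tested. Probe and transcript sequences were not used here.

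Genes were named from the 27166 probe sets with 1 gene symbol (177 had several and 10350 none), of which 26851 matched RefSeq by gene identifier. Sex was tested as male minus female in limma 3.58.1 (R 4.3.3), two-sided, with Benjamini-Hochberg adjustment over 37693 probe sets and a threshold of 0.05, after a check on simulated data. A gene was represented by its brightest probe set. Nothing in the labels says that same-numbered pools belong together. The p-values set the male minus female difference against the moderated spread between pools of a sex, and not against the spread between embryos. The number of arrays limits precision. Every gene of the pathway lists and every neighbour could be named, with those past the threshold and the widest range of each list. The 5 genes and the lists were chosen with earlier results of these data known, and the comparison of probe set pairs was added after the values were seen. Alternatives were other moderation settings, array weights, a replicate block, a filter on dim probe sets, other scalings, other gap sizes and leaving out each pool.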

Additional observations from a re-analysis of the deposited data

How the results depend on the processing

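Over all chicken probe sets 209 differed between the sexes, and leaving out each pool in turn gave 113 to 161, with 130 without male pool 1, 113 without female pool 2 and 129 without female pool 3. With the replicate number as a block the count was 245, with 1 neighbour and 0 pathway genes called, so the pairing changed no call in those groups. Deviations of same-numbered pools from their sex means correlated at 0.01, 0.15 and 0.32 (numbers 1, 2 and 3), and those of differently numbered pools at -0.24 to 0.11. Male pools 2 and 3 correlated most with the female pool of their own number, and male pool 1 with female pool 2 (0.07). These values do not settle whether the numbers pair the pools. The labels name no pairs, so the main fit used none. The 0 pathway genes stayed at 0 under every alternative run. The 1 neighbour (RIOK2) gave 0 to 1 when pools were left out. Ranges over the pools hardly moved with another scaling. Without each pool in turn they were 5.77 to 5.90 for SRI and 5.89 to 5.98 for LOC770705, which have 2 low pools each. They were 1.22 to 6.69 for FAM174A, 1.38 to 4.80 for RDM1 and 0.451 to 4.08 for SUCLG2, the lowest without female pool 2, male pool 1 and male pool 2, in that order, since these ranges rest on 1 pool. The 148 probe sets with a gap of at least 1 became 34 at a gap of 2 and 1149 at 0.5, and 153 to 171 without each pool, as removing a pool can join gaps. Signals under background carry only a bound, so the low sides of the splits have no order.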
